A study of Rattus norvegicus with 35 samples.

Results

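The gene-rich single cells of a rat converted hypoblast stem cell culture were split by their level of Cdh1, the gene for E-cadherin. The 11 cells at 50 CPM or more are called Cdh1-positive here, and the 8 cells below 50 CPM Cdh1-negative. CPM (counts per 1000000 reads) is the read count of a gene scaled by all reads counted in that cell. Gene-rich means that at least 4000 records of the count table held a read, which was true of 19 of the 34 single cells. The series holds 35 libraries, the last of which is a bulk population control. The groups were chosen by the measured Cdh1 level itself, so Cdh1 is given as a description.

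Both groups came from the same preparation. Rat embryonic stem cells had been turned into converted hypoblast stem cells in medium with fetal bovine serum (2%), EGF, PDGF and LIF, and all cells were taken on day 12. Single cells were isolated on a Fluidigm C1 chip, and Nextera XT chemistry gave the sequencing libraries. No label names a culture, passage or batch for any cell, so the 19 cells stand for 1 culture. Each group is therefore 1 sample, no test was possible, and SDs describe cells.

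E-cadherin joins neighbouring epithelial cells at adherens junctions, where its tail binds beta-catenin and, through it, alpha-catenin and the actin cytoskeleton. The hypoblast, or primitive endoderm, forms an epithelium on the inner surface of the early embryo and gives rise to visceral and parietal endoderm. Visceral endoderm keeps E-cadherin and an epithelial form, whereas parietal endoderm migrates as loose cells that lay down a thick basement membrane and is known to lose E-cadherin.

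The groups had similar depth. Positive cells held 95359 to 379141 reads (median 293829) and 4028 to 5514 records with a read (median 4603). Negative cells held 251251 to 361960 reads (median 315265) and 4255 to 5100 records (median 4567). A single read was worth 2.64 to 10.5 CPM in the positive cells and 2.76 to 3.98 CPM in the negative cells. The cell labelled C46, in the positive group, was the shallowest and stood apart in its genes, as described with the hypoblast and mesenchymal lists.

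Cdh1 was at 54.5 CPM in the lowest, 224 in the median and 607 in the highest positive cell, and at 0, 9.34 and 41.7 CPM in the lowest, median and highest negative cell. The groups do not overlap because Cdh1 defined them. Mean Cdh1 was 274 ± 195 CPM (SD, n = 11) against 12.4 ± 13.9 CPM (n = 8). The cells nearest the threshold were C13 at 54.5 CPM and C44 at 55.2 CPM just inside the positive group, and C25 at 41.7 CPM just outside it. At the other limit, C46 had 4028 records with a read and was kept, and C10 had 3976 and was not. Only C26 and C27 among the negative cells had no Cdh1 read, and a count of 0 there allows up to 8.29 and 10.01 CPM (3 reads, counting error only). The other negative cells had some Cdh1 reads, but C33 had only 1 and C72 only 2, fewer than the 3 reads of that limit. The bulk library had 28 Cdh1 reads, or 594 CPM, near the top of the range of the positive cells.

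Epcam, a surface adhesion protein of epithelia, did not follow Cdh1 closely. It was at 0 CPM in the lowest, 17.02 in the median and 303 in the highest positive cell, and at 0, 4.99 and 135 CPM in the negative cells. The groups overlapped over most of their range. Epcam reached 50 CPM in 4 of 11 positive cells (36.4%, exact 95% interval 10.9% to 69.2%) and in 2 of 8 negative cells (25%, 3.19% to 65.1%). Its mean was 75.0 ± 111 CPM (SD, n = 11) against 28.3 ± 49.2 CPM (n = 8), a log2 ratio of 1.38, but 0.86 without C15 and 2.44 without C24. Since this second marker did not separate the cells, the groups are named by Cdh1 alone.

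**Figure D1:**
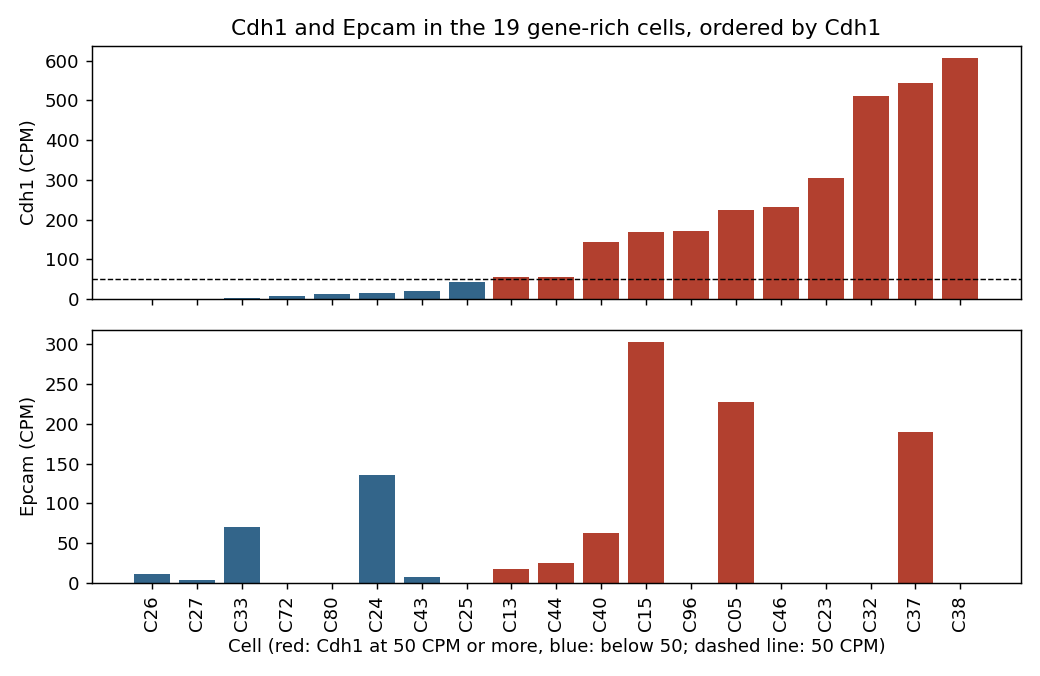
Bars give Cdh1 (top) and Epcam (bottom) in CPM in each of the 19 gene-rich cells, ordered by Cdh1, with positive cells in red, negative cells in blue and the 50 CPM threshold dashed. Cdh1 runs from 0 to 607 CPM, while Epcam is high in cells of both colours, up to 303 CPM in C15 and 135 CPM in C24.

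Over all genes, 5533 had a mean of both groups of at least 20 CPM and were compared, without Cdh1. A gene was called when its mean differed at least 2-fold (1 CPM added to each mean), also with the highest cell of the higher group left out. By that rule 495 genes (8.95%) were called higher and 312 (5.64%) lower in the positive cells, and the levels of 0 genes (0.0%) were free of overlap between the groups. The median log2 ratio of all genes was 0.06, with 2904 of 5533 above 0. These shares are the background against which the gene groups below are read.

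The median of the adherens junction genes other than Cdh1 was above 0 at the 50 CPM threshold, but this depended on the threshold. Of 8 that passed the filter on low values, 6 had a ratio above 0, 1 was called higher and 0 lower, with a median log2 ratio of 0.76. A single call among 8 is near the share over all genes, of which 8.95% were called higher. That median was 0.32 without C13 and -0.20 with a Cdh1 threshold of 100 CPM, which moves C13 and C44 to the negative group. The gene called was Ctnna1, for alpha-catenin. It was at 116 CPM in the lowest, 378 in the median and 1086 in the highest positive cell, and at 6.08, 111 and 521 CPM in the negative cells. Every positive cell was above 50 CPM, as were 5 of 8 negative cells, and the ranges overlapped between 116 and 521 CPM. The means were 421 ± 269 CPM (SD, n = 11) and 169 ± 176 CPM (n = 8), a 2.48-fold difference. The log2 ratio of Ctnna1 was 1.31, but 0.83 with a minimum of 4500 records with a read and 0.31 with a Cdh1 threshold of 100 CPM. The call was also lost without any 1 of 7 of the 19 cells, and with the alternative scaling by edgeR's TMM factors (0.97 without the highest cell).

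The other partners of E-cadherin were at similar means or varied too much to be called. Ctnnb1, for beta-catenin, was at 209 ± 144 CPM (SD, n = 11) in positive and 250 ± 218 CPM (n = 8) in negative cells, and Jup, for plakoglobin, at 313 ± 236 against 327 ± 343 CPM. Ctnnd1, for p120-catenin, which holds cadherins at the membrane, was at 73.2 ± 118 against 26.3 ± 48.4 CPM. Its log2 ratio of 1.44 dropped to 0.59 without C13. Vcl, for vinculin, an actin linker, was at 823 ± 732 against 725 ± 804 CPM.

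Of 12 tight junction and polarity genes that passed the filter, 8 had a ratio above 0, 3 were called higher and 0 lower, with a median of 0.50, or 0.28 without C13 and 0.07 with a Cdh1 threshold of 100 CPM. Among those called were Ocln (occludin, which spans the membrane) and Cldn12 (a claudin). Both were high in a few cells and at or near 0 in the others.

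Ocln was at 0, 0 and 559 CPM in the lowest, median and highest positive cell and at 0, 0 and 104 CPM in the negative cells. It was above 50 CPM in C05, C15, C32, C38 and C44 and, among the negative cells, in C80, while most cells of both groups had little or none. Ocln means were 124 ± 177 CPM (SD, n = 11) and 17.5 ± 36.0 CPM (n = 8), a log2 ratio of 2.76, which was 2.14 without C38 and 4.33 without C80.

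Cldn12 was at 0, 0 and 596 CPM in the lowest, median and highest positive cell and at 0, 0 and 29.9 CPM in the negative cells. Positive cells C13, C23, C40 and C46 were above 50 CPM and no negative cell was. Cldn12 means were 81.7 ± 175 CPM (SD, n = 11) and 4.63 ± 10.5 CPM (n = 8), a log2 ratio of 3.88, with 2.48 without C40, where its mean came under the filter, and 5.35 without C43.

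The positive cells above 50 CPM for Ocln and those above 50 CPM for Cldn12 were different cells.

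Not every tight junction gene leaned the same way. F11r, for the adhesion molecule JAM-A, was at 196 ± 222 CPM (SD, n = 11) in positive and 464 ± 358 CPM (n = 8) in negative cells, a log2 ratio of -1.24 that was not called because it was -0.88 without C25. Cldn6, a claudin of early embryonic epithelia, was at 267 ± 353 against 383 ± 287 CPM. Tjp1, for a scaffold protein of the junction, was at 38.2 ± 68.5 against 10.6 ± 18.3 CPM, a log2 ratio of 1.76 that was 0.97 without C13. Counted per cell, positive cells had 7 to 22 (median 17) of 35 adherens, tight junction and desmosome genes at 5 CPM or more, and negative cells 9 to 18 (median 14). After thinning every cell to 95359 reads, the medians were 16 and 12.5.

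No keratin, epithelial surface gene or epithelial regulator that passed the filter was called in either direction. Krt8 and Krt18, the keratin pair of simple epithelia, were at 210 ± 213 and 410 ± 285 CPM (SD, n = 11) in positive cells and at 285 ± 279 and 317 ± 182 CPM (n = 8) in negative cells. The 3 keratins, 6 surface genes and 4 transcription or splicing regulators had medians of 0.04, -0.24 and -0.32. Leaving out 1 cell moved these over -0.20 to 0.29, -0.39 to 0.69 (the latter without C43) and -0.70 to -0.03. Ap1m2, for an adaptor of epithelial protein sorting, was at 180 ± 232 against 82.1 ± 90.7 CPM, a log2 ratio of 1.13, or 0.71 without C96. Spint1, for a protease inhibitor, was at 47.4 ± 63.3 against 119 ± 275 CPM, and its log2 ratio of -1.31 was 0.997 without C43. The surface protein Cd9 was at 1677 ± 821 CPM in positive and 2672 ± 988 CPM in negative cells. Klf4 and Klf5, factors of epithelial and stem cells, were at 78.2 ± 64.7 against 118 ± 143 CPM and at 179 ± 114 against 185 ± 152 CPM. Over all 35 epithelial genes that passed the filter, of 59 matched, 4 were called higher and 0 lower, with 21 ratios above 0. Their median of 0.29 was 0.10 without C13.

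**Figure D2:**
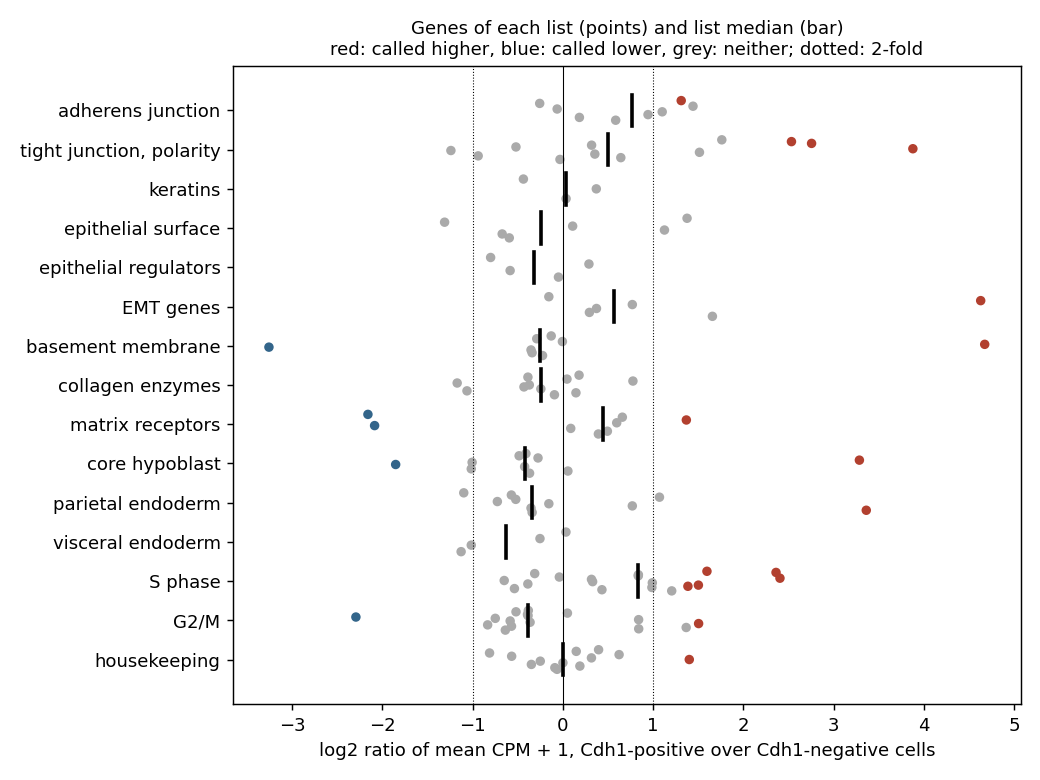
Each point is the log2 ratio of mean CPM + 1 (positive over negative cells) of 1 gene that passed the filter, by gene list, with the list median as a bar and genes called higher in red and lower in blue. Adherens junction, tight junction and S phase genes have medians of 0.76, 0.50 and 0.84, and the core hypoblast, parietal and visceral endoderm lists have medians of -0.42, -0.35 and -0.63.

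No other cadherin gene passed the filter on low values. Of 9 matched in the table, 6 had no read in any of the 19 cells. Cdh2, for N-cadherin, the cadherin of mesenchymal cells, had 0 reads in the positive cells and 39 reads in the negative cells. Among the negative cells it was read only in C26, at 105 CPM, and in C33, at 3.04 CPM. Cdh17 was at 5 CPM or more in 3 positive cells and in 0 negative cells.

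The transcription factors that repress Cdh1 did not separate the groups. Snai1 was at 0, 0 and 288 CPM in the lowest, median and highest positive cell and at 0, 31.3 and 184 CPM in the negative cells. Both groups had cells with none and cells with clear levels, and means were 49.3 ± 94.1 CPM (SD, n = 11) and 55.0 ± 68.4 CPM (n = 8). Snai2 had 0 reads in both groups, Zeb2 had 1 read in all, and Twist1 2 in each group. Grhl2, an activator of epithelial genes, had 0 reads. Ovol2, another epithelial factor, was read in 1 cell of each group, and Esrp1, a splicing regulator of epithelia, was at 21.5 ± 35.3 against 38.2 ± 108 CPM. Zeb1 was not matched in the table.

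No mesenchymal gene was called higher in the Cdh1-negative cells in the main comparison. Of 34 matched genes of the epithelial-mesenchymal transition and fibroblast lists, 9 passed the filter. Of these, 2 were called higher in the positive cells and 0 lower, with a median log2 ratio of 0.95, or 0.42 without C46. On the difference of mean log2(CPM + 1), 3 of 9 were called higher and 1 lower. With no filter on low genes, 3 of 25 were called higher and 1 lower. Vim, for vimentin, was at 373 ± 481 CPM (SD, n = 11) in positive and 218 ± 224 CPM (n = 8) in negative cells, and at a log2 ratio of 0.77, or 0.25 without C46. Fn1, for fibronectin, was at 164 ± 260 against 127 ± 144 CPM, a log2 ratio of 0.37 that was -0.42 without C46. Every negative cell had at least 6.08 CPM of Fn1, whereas C13, C32, C37, C38 and C40 of the positive cells were at 0.

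Tagln, for the actin-binding protein transgelin, was one of those called. It was at 0, 0 and 776 CPM in the lowest, median and highest positive cell and at 0 in every negative cell. C13 (776 CPM), C96 (296 CPM) and C44 (92.0 CPM) carried nearly all of it, and most positive cells were at 0 like the negative ones. The mean was 107 ± 239 CPM (SD, n = 11), at least 89.1-fold higher than the floor of 3 reads over the negative group, on the counting error of independent reads only. The log2 ratio of Tagln was 6.75, or 5.35 without C13, where its mean came under the filter. With a Cdh1 threshold of 100 CPM it was -1.33, since C13 and C44 then counted as negative. Tcf4, a transcription factor also active in mesenchyme, was at 45.9 ± 112 CPM (SD, n = 11) against 0.90 ± 2.53 CPM (n = 8). Only 2 reads were counted in the negative cells, and the ratio of summed reads was 29.1 (95% interval 7.75 to 245). That interval covers the counting error of independent reads only, not the spread between cells, and C46 alone was at 378 CPM. The log2 ratio of mean CPM for Tcf4 was 4.63, with 2.86 without C46, where its mean came under the filter, and 5.55 without C72.

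C46 differed from the other 18 gene-rich cells in these lists. It was the only gene-rich cell with Col1a2, a fibrillar collagen of fibroblasts, at 252 CPM, and the only one with S100a4, at 902 CPM. Its fibroblast list summed to 1636 CPM against 37.05 to 1082 in the others, and its core hypoblast list to 62.9 CPM against 1018 to 3890. The basement membrane list summed to 807 CPM in C46 against 5808 to 24994. Of the defining fibroblast markers, Col1a1, Col3a1, Thy1, Dcn and Lum were at 0 in all 19 cells. C46 had 231 CPM of Cdh1 and belongs to the positive group by the threshold.

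The RNAs for basement membrane proteins that hypoblast cells make in large amounts were at similar levels. Lama1, for the laminin alpha 1 chain, was at 126, 2924 and 5711 CPM in the lowest, median and highest positive cell and at 1771, 3159 and 6908 CPM in the negative cells. The groups overlapped over most of their range, and C46 and C15 were the lowest, with means of 3074 ± 1841 CPM (SD, n = 11) and 3360 ± 1706 CPM (n = 8). Col4a1, for the collagen IV alpha 1 chain, was at 2342 ± 1124 against 2350 ± 774 CPM. Lamc1, for the laminin gamma 1 chain, was at 2828 ± 1347 against 3455 ± 1473 CPM. Sparc, a collagen-binding matrix protein, was at 3558 ± 1587 against 4543 ± 2480 CPM, and Pxdn, for the enzyme that crosslinks collagen IV, at 1101 ± 492 against 1287 ± 950 CPM.

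Of 8 basement membrane genes that passed the filter, of 14 matched, 1 was called higher and 1 lower, with a median of -0.26, or -0.13 without C46 and -0.10 without C43. The one called higher was Nid2, for nidogen 2, which links laminin to collagen IV. It was at 67.9 ± 132 CPM (SD, n = 11) in positive and 1.70 ± 3.59 CPM (n = 8) in negative cells, from 189 and 4 reads. Its log2 ratio was 4.67, with 3.74 without C23, where its mean came under the filter, and 5.51 without C27. Agrn, for the heparan sulfate proteoglycan agrin, was called lower, at 5.38 ± 13.04 against 59.9 ± 98.3 CPM. The log2 ratio of Agrn was -3.26, with -4.44 without C37 and -2.38 without C27. The Agrn call was lost without C27, where the mean came under the filter, and without C33, where the ratio was -0.69 with the highest remaining cell left out. Nid2 was at 5 CPM or more in 5 of 11 positive and 1 of 8 negative cells, and Agrn in 2 and 3 cells.

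Among 11 collagen-modifying and export genes that passed the filter, 0 were called in the main comparison, with a median of -0.24. This count depended on the setting. With TMM factors 2 were called lower, with a Cdh1 threshold of 100 CPM 2 lower and 1 higher, and thinned to equal reads 1 lower. With 1 cell left out, at least 1 was called lower in most cases, and 2 were without C44. Serpinh1, for the collagen chaperone HSP47, came near the threshold. It was at 73.4, 258 and 580 CPM in the lowest, median and highest positive cell and at 327, 504 and 680 CPM in the negative cells. Only C13 and C37 of the positive cells reached the range of the negative cells. Serpinh1 means were 243 ± 157 CPM (SD, n = 11) and 508 ± 132 CPM (n = 8), a log2 ratio of -1.06 that was -0.99 with the highest negative cell left out and so was not called. Plod2, for a collagen lysyl hydroxylase, was at 58.6 ± 66.8 against 133 ± 106 CPM, while P4hb, a subunit of the collagen prolyl hydroxylase, was at 1875 ± 894 against 1816 ± 482 CPM.

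The receptors for this matrix differed from one another. Of 8 that passed the filter, 1 was called higher and 2 lower, with a median of 0.44 and 6 ratios above 0. That median was 0.21 without C46 and -0.25 with a minimum of 4500 records with a read. Itgb1, for the integrin beta 1 subunit shared by most laminin and collagen receptors, was at 83.9, 385 and 897 CPM in the lowest, median and highest positive cell and at 9.11, 74.5 and 438 CPM in the negative cells. All 11 positive cells and 5 of 8 negative cells were above 50 CPM. Itgb1 means were 399 ± 274 CPM (SD, n = 11) and 154 ± 162 CPM (n = 8), 2.58-fold apart, with a log2 ratio of 1.37 that was 0.95 with a Cdh1 threshold of 100 CPM. The Itgb1 call was lost without any 1 of C37, C38, C25 or C33 and at a threshold of 25 CPM, where the ratio without the highest cell was 0.87.

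Dag1, for dystroglycan, a laminin receptor outside the integrin family, went the other way. It was at 0, 7.91 and 123 CPM in the lowest, median and highest positive cell and at 0, 135 and 226 CPM in the negative cells. Of the negative cells, only C26 and C27 were low, and of the positive cells C13 was the highest. Dag1 means were 27.3 ± 39.5 CPM (SD, n = 11) and 119 ± 81.3 CPM (n = 8), a log2 ratio of -2.08, and -2.68 without C13. Itga5, for the alpha subunit of the fibronectin receptor, was called lower at 8.93 ± 25.1 against 43.3 ± 60.0 CPM. Its log2 ratio was -2.16, or -4.19 without C15, and it was read at 5 CPM or more in 3 cells of each group. The Itga5 call was lost without C26, C27 or C43, where the ratio without the highest cell was -0.97 to -0.96.

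**Figure D3:**
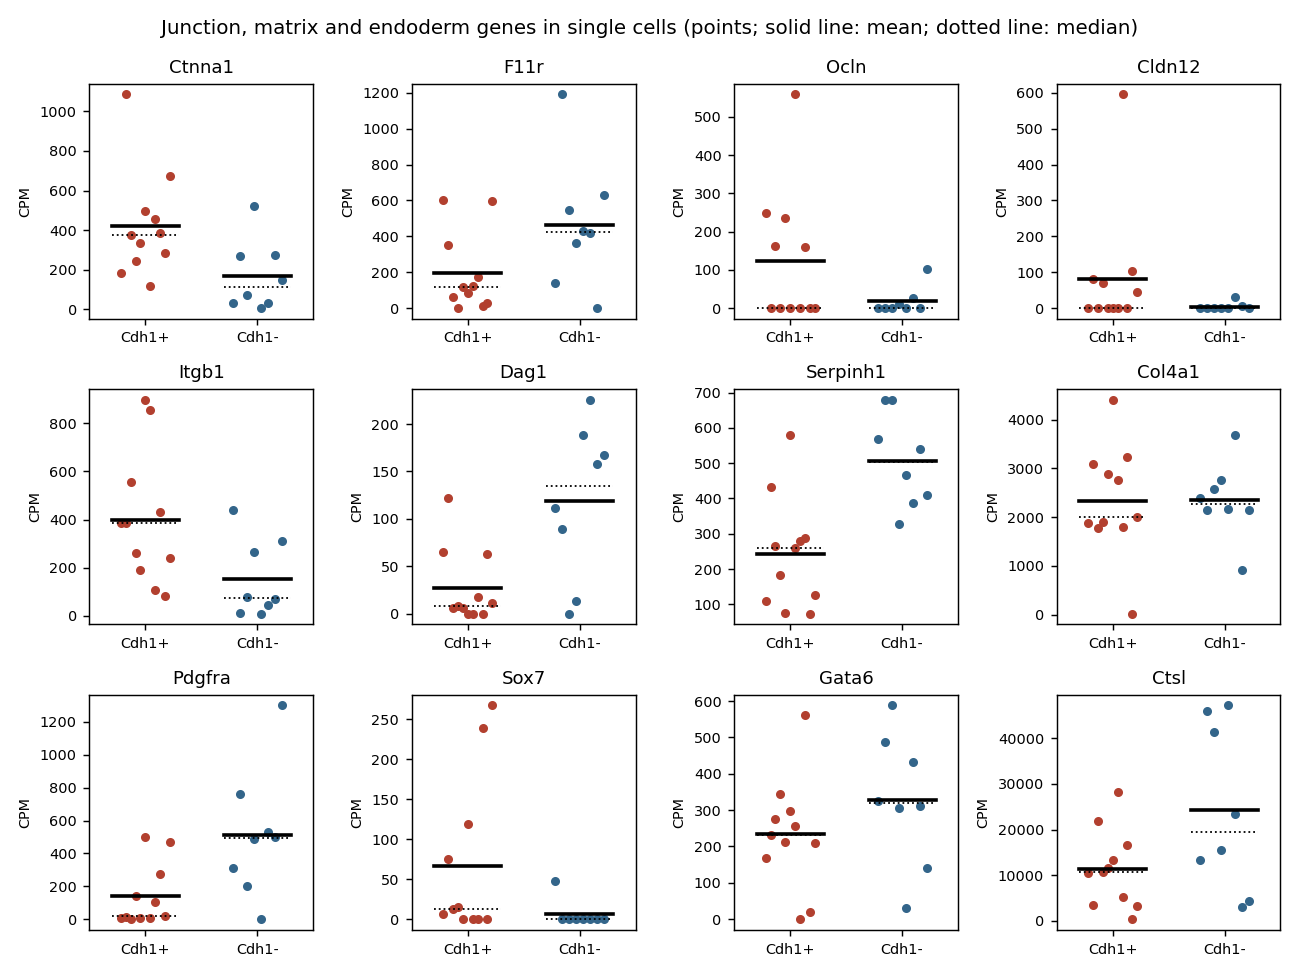
Points give the CPM of 12 junction, matrix and endoderm genes in each Cdh1-positive (red, n = 11) and Cdh1-negative cell (blue, n = 8), with the mean as a solid and the median as a dotted line. Ctnna1 and Itgb1 are spread over all positive cells, Ocln, Cldn12 and Sox7 are high in a few of them, and Serpinh1, Dag1 and Pdgfra sit higher in the negative cells, with overlap in every panel.

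Core hypoblast genes were present in both groups, and their medians leaned to the negative cells. Gata6, a factor that specifies the hypoblast, was at 0, 231 and 561 CPM in the lowest, median and highest positive cell and at 30.4, 319 and 588 CPM in the negative cells. The groups overlapped almost fully, with means of 234 ± 152 CPM (SD, n = 11) and 328 ± 181 CPM (n = 8). Gata4, which acts with it, was at 277 ± 196 against 368 ± 220 CPM, Sox17 at 42.2 ± 34.0 against 51.3 ± 47.6 CPM, and Dab2, an endocytic adaptor of the hypoblast, at 347 ± 253 against 465 ± 458 CPM. Foxa2 was at 50.7 ± 54.3 against 103 ± 120 CPM. Of 10 genes that passed the filter, of 16 matched, 1 was called higher and 1 lower, 2 had a ratio above 0, and the median was -0.42, or -0.28 without C46.

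The gene called lower was Pdgfra, the receptor for the PDGF in the medium and an early hypoblast marker. It was at 0, 20.97 and 502 CPM in the lowest, median and highest positive cell and at 0, 493 and 1301 CPM in the negative cells. Pdgfra reached 50 CPM in 5 of 11 positive cells (45.5%, exact 95% interval 16.7% to 76.6%) and in 7 of 8 negative cells (87.5%, 47.3% to 99.7%). The other 6 positive cells were at 20.97 CPM or less, while C37 and C96 were near the median of the negative cells. Pdgfra means were 141 ± 191 CPM (SD, n = 11) and 511 ± 394 CPM (n = 8), 3.61-fold higher in the negative cells, with a log2 ratio of -1.85. With a Cdh1 threshold of 25 CPM, which moves C25 to the positive group, it was -1.30, and the call was lost at -0.80 without the highest negative cell. The bulk library had 4 Pdgfra reads, or 84.9 CPM.

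Sox7, a factor of the maturing primitive endoderm and parietal endoderm, was called higher. It was at 0, 12.9 and 268 CPM in the lowest, median and highest positive cell, and the only negative cell with any, C24, was at 47.8 CPM. Detection at 5 CPM or more was in 7 of 11 positive cells (63.6%, exact 95% interval 30.8% to 89.1%) and 1 of 8 negative cells (12.5%, 0.316% to 52.7%). With every cell thinned to equal reads, 6 and 1 cells had a Sox7 read. Sox7 means were 66.9 ± 99.9 CPM (SD, n = 11) and 5.97 ± 16.9 CPM (n = 8), a log2 ratio of 3.28. It was 6.09 without C24, and 0.37 with a Cdh1 threshold of 100 CPM. The 4 positive cells above 50 CPM were C13, C37, C44 and C96.

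Few genes of the visceral and parietal endoderm were called. Of 10 parietal endoderm genes that passed the filter, 1 was called higher and 0 lower, with a median of -0.35, or -0.07 without C80. Ctsl, for the protease cathepsin L, abundant in parietal endoderm, was at 357, 10720 and 28198 CPM in the lowest, median and highest positive cell and at 3128, 19463 and 47242 CPM in the negative cells. Several negative cells exceeded every positive cell, but others were among the lowest, with means of 11366 ± 8454 CPM (SD, n = 11) and 24321 ± 18264 CPM (n = 8). The log2 ratio of -1.10 was -0.89 without C33 and was not called. Thbd, for thrombomodulin, was at 144 ± 156 against 68.1 ± 135 CPM, and Srgn, for the proteoglycan serglycin, at 1766 ± 1065 against 2622 ± 1746 CPM. The gene called was Stra6, the receptor for retinol-binding protein, at 60.4 ± 115 against 4.98 ± 14.1 CPM. Its log2 ratio was 3.36, with 2.34 without C23, where its mean came under the filter, and 5.94 without C24.

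Of 28 visceral endoderm genes, all matched, 14 had no read in any of the 19 cells and 4 passed the filter, of which 0 were called, with a median of -0.63. With a minimum of 4500 records with a read, that median was -1.50 and 1 gene was called lower. Apoe, for apolipoprotein E, was at 1657 ± 1238 CPM (SD, n = 11) in positive and 1618 ± 954 CPM (n = 8) in negative cells. Cubn, for the endocytic receptor cubilin, was at 187 ± 324 against 380 ± 383 CPM, and the zinc transporter Slc39a4 at 194 ± 366 against 425 ± 255 CPM. In the pluripotency and trophoblast lists 4 genes and 1 gene passed the filter, and 0 were called. Of the core pluripotency factors, Pou5f1 had 4 reads in positive and 18 in negative cells, Nanog 5 in each, and Sox2 0 and 2.

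Among the single lists, that of DNA replication gave the most calls, but it also had the most genes that passed the filter. The matrix receptors, with 1 called higher and 2 lower of 8, had a larger share called. Over all genes, 8.95% were called higher and 5.64% lower. Of 18 S phase genes matched, all passed the filter, 13 had a ratio above 0, 5 were called higher and 0 lower, and the median log2 ratio was 0.84. Without C80, 3 were called, and the median was 0.52 without C44 and 0.54 without C40. It was 0.16 with a Cdh1 threshold of 100 CPM. Other alternatives gave a larger S phase median, such as 1.03 without C24. With a minimum of 4500 records with a read it was 1.09, with 6 genes called higher and 1 lower. On the difference of mean log2(CPM + 1) it was 1.63, with 11 called higher and 0 lower. The median was 0.32 without C13, C44 and C25, the cells nearest the threshold, an alternative chosen after seeing the data. Summed over the list, positive cells ranged from 1708 to 10815 CPM and negative cells from 1417 to 9068 CPM, so that single cells of either group could be high.

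Rrm1, for the large subunit of ribonucleotide reductase, was at 6.46, 304 and 797 CPM in the lowest, median and highest positive cell and at 0, 17.7 and 376 CPM in the negative cells. Of the negative cells only C72 was above 59.5 CPM, and of the positive cells only C15 was not. The log2 ratio of Rrm1 was 2.41, with means of 340 ± 238 CPM (SD, n = 11) and 63.5 ± 128 CPM (n = 8). It was 4.11 without C72 and 0.83 with a Cdh1 threshold of 100 CPM.

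Hells, for a chromatin remodeller of replicating cells, was at 36.8, 504 and 1915 CPM in the lowest, median and highest positive cell and at 0, 43.2 and 1027 CPM in the negative cells. It was at 5 CPM or more in all 11 positive cells and in 4 of 8 negative cells. Hells means were 548 ± 517 CPM (SD, n = 11) and 193 ± 350 CPM (n = 8), a log2 ratio of 1.50, or 2.87 without C24. The Hells call was lost without any 1 of 8 of the 19 cells.

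Pcna, for the sliding clamp of the replication fork, was at 51.7, 175 and 708 CPM in the lowest, median and highest positive cell and at 0, 121 and 167 CPM in the negative cells. The lower positive cells overlapped the negative ones, and some lay well above. Pcna means were 267 ± 231 CPM (SD, n = 11) and 87.6 ± 70.9 CPM (n = 8), a log2 ratio of 1.60, or 0.88 with a minimum of 4500 records with a read. Mcm2, a subunit of the replicative helicase, had a log2 ratio of 2.36 (3.28 without C72), and Rfc2, of the clamp loader, one of 1.39 (0.65 with that minimum). The Rfc2 call was lost without any 1 of 5 cells. Other replication genes were near equal: Mcm7, another helicase subunit, was at 403 ± 345 against 414 ± 442 CPM, and Rrm2, the small reductase subunit, at 2271 ± 1891 against 1823 ± 1162 CPM.

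Positive cells had 10 to 18 (median 16) of the 18 S phase genes at 5 CPM or more, and negative cells 7 to 18 (median 12.5). Thinned to equal reads, the medians were 16 and 12. The median of the mitotic genes had the opposite sign in the main comparison, but the same sign as that of the S phase genes in some alternatives. Of 16 G2/M genes that passed the filter, 1 was called higher (Kif11, a spindle motor) and 1 lower (Bub1, a checkpoint kinase), with a median of -0.39. The Kif11 call was lost without any 1 of 9 cells and with TMM factors. The G2/M median was 0.32 without C25, 0.59 with a Cdh1 threshold of 25 CPM, 0.14 with 100 CPM and 0.47 without the 3 cells nearest the threshold. It stayed below 0 in others, such as -0.69 without C05, with 0 called higher and 2 lower. On the difference of mean log2(CPM + 1) it was -0.36, with 1 called higher and 5 lower. Ccnb1, for cyclin B1, was at 0, 49.4 and 1605 CPM in the lowest, median and highest positive cell and at 107, 379 and 1618 CPM in the negative cells, with means of 389 ± 583 and 507 ± 487 CPM.

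**Figure D4:**
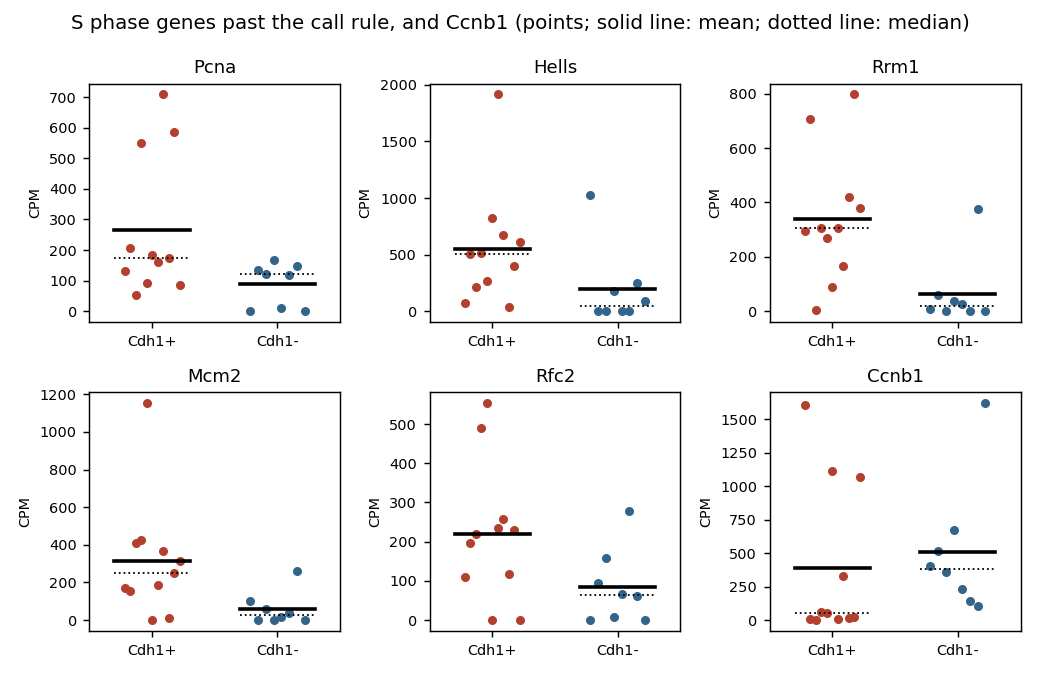
Points give the CPM of the 5 S phase genes called higher and of the mitotic cyclin Ccnb1 in each Cdh1-positive (red, n = 11) and Cdh1-negative cell (blue, n = 8), with the mean as a solid and the median as a dotted line. Median Rrm1 is 304 CPM in positive and 17.7 CPM in negative cells, and single negative cells are high in Rrm1, Hells and Mcm2.

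The stress and housekeeping lists gave 1 call each. Jun, an immediate early gene, was at 63.6 ± 79.2 CPM (SD, n = 11) against 22.3 ± 39.8 CPM (n = 8), a log2 ratio of 1.47, but 2.65 without C27 and -0.12 with a Cdh1 threshold of 100 CPM, and the call was lost without any 1 of 9 cells. Atf3, a stress factor, was at 184 ± 214 against 174 ± 266 CPM. Of 13 housekeeping genes, B2m, for the light chain of class I molecules, was called higher at 37.98 ± 38.5 against 13.8 ± 19.9 CPM, a log2 ratio of 1.40, or 2.25 without C43, and the call was lost without any 1 of 6 cells. Eef1a1 was at 7783 ± 1615 against 7778 ± 2286 CPM, Gapdh at 777 ± 241 against 701 ± 96.4 CPM, and the ribosomal protein gene Rplp0 at 5420 ± 2236 against 9515 ± 2871 CPM. Reads of the ribosomal RNA gene Rn45s made up 0.508% to 1.63% (median 0.968%) of the reads of positive cells and 0.434% to 0.904% (median 0.681%) of those of negative cells. With totals computed without Rn45s, 500 genes were called higher and 312 lower, and no named gene lost its call.

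Genes outside the lists were called as well. Ceacam1, an adhesion molecule of the immunoglobulin family, was called lower in the positive cells. It was at 0, 0 and 51.2 CPM in the lowest, median and highest positive cell and at 0, 194 and 950 CPM in the negative cells. Detection at 5 CPM or more was in 4 of 11 positive and 7 of 8 negative cells, and only C33 of the negative cells had none. Ceacam1 means were 12.9 ± 21.4 CPM (SD, n = 11) and 302 ± 347 CPM (n = 8), a log2 ratio of -4.44. With a minimum of 4500 records with a read the call was lost, at -0.43 without the highest negative cell. Genes of this family are similar in sequence, and how reads matching several genes were counted is not given in the sources used here.

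H19, an imprinted long non-coding RNA, was also lower in the positive cells, at 17.4 ± 36.1 CPM (SD, n = 11) against 238 ± 428 CPM (n = 8). Its log2 ratio was -3.70, with -2.69 without C24 and -4.53 without C44, and it was detected in 3 of 11 and 4 of 8 cells. The call was lost without C24 or C72, where the ratio was 0.45 with the highest remaining negative cell left out.

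In the other direction, Pycr3, for an enzyme of proline synthesis, was at 170 ± 196 CPM (SD, n = 11) in positive and 1.95 ± 2.91 CPM (n = 8) in negative cells. Lonp1, for a mitochondrial protease, was at 191 ± 284 against 7.79 ± 14.1 CPM, with a log2 ratio of 4.45 and 5.52 without C27. Plekhb2, for a membrane-bound protein of endosomes, was detected in 10 of 11 positive and 4 of 8 negative cells, at 152 ± 181 against 8.53 ± 11.9 CPM. Its log2 ratio was 4.01, between 3.60 without C13 and 4.50 without C26, but 0.87 with a Cdh1 threshold of 100 CPM.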

How the data were processed

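The authors deposited whole-number read counts per transcript record in 1 table, with a column for each of 34 single cells and 1 bulk library, all of which were mapped and none left unused (0 columns). The build named is rn5 and the tool TopHat2, per the submitters' processing notes. Neither the program that counted reads, nor its annotation, nor the treatment of reads matching several genes is given in the sources used here. No molecular identifiers are named, so amplified copies count as reads, and intervals of read counts and floors (3 reads) cover counting error only. Even counts made up 62.1% to 70.4% of nonzero counts in the gene-rich cells. Of 17201 records, 16215 were matched to symbols of a RefSeq gene table, and the other 986 held 3.88% of the reads of these cells and stayed in the totals.

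Counts were scaled to CPM with Python 3.11.15, numpy 2.4.6, pandas 2.3.3 and scipy 1.17.1, and figures drawn with matplotlib 3.10.9. Groups were compared as means over cells, with 1 CPM added, a filter of 20 CPM on the mean of both groups and a 2-fold call, without tests. The comparison was run on simulated counts with known changes as a check of the code. That check does not give the share of wrong calls in these cells. A gene counted as detected from 5 CPM, and shares of cells carry 95% intervals by the exact Clopper-Pearson method. Those intervals treat the cells as independent draws from 1 culture and do not cover variation between cultures. TMM factors came from edgeR 4.0.16 (R 4.3.3) as an alternative scaling only. No doublet caller was run. None of 171 pairs of gene-rich cells held identical counts, with correlations across genes (Pearson, log2 of CPM + 1) of 0.52 to 0.70.

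The cells, the 23 gene lists and the comparisons were chosen with earlier results of these data known. Named were Cdh1, Epcam and a set of regulators, members of the epithelial, basement membrane and endoderm lists at 50 CPM or more, the 3 highest and any called members of other lists, and in each direction the 10 called genes with the largest ratio among those at 100 CPM or more and detected in at least 50% of the cells of the higher group. Serpinh1, Plod2, Tjp1, Cdh17, Sox17, Gapdh, Rplp0, Atf3, Col1a1, Col1a2, Col3a1, Thy1, Dcn, Lum, Pou5f1, Nanog and Sox2 were named outside that rule, after their values were seen or as cell type markers. Some genes named by this rule are not reported here.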

Additional observations from a re-analysis of the deposited data

How the results depend on the processing

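The count of genes called depends on the filter and the scale. Against 495 higher and 312 lower genes, 1153 and 510 were called with no filter on low genes, 187 and 143 with a filter of 50 CPM, and 815 and 589 on the difference of mean log2(CPM + 1). Leaving out each of the 19 cells in turn gave 463 to 584 higher and 302 to 360 lower genes. List medians then ran from 0.10 to 0.36 for epithelial, 0.42 to 1.58 for mesenchymal, -0.40 to -0.10 for basement membrane, -0.52 to -0.28 for hypoblast, -0.47 to -0.07 for parietal and -0.91 to -0.46 for visceral endoderm genes. With a Cdh1 threshold of 100 CPM (9 against 10 cells) 375 genes were called higher and 389 lower, of which 241 and 208 were shared with the calls at 50 CPM, the epithelial median was 0.03, and, on the log2 scale, Tagln (-1.33) and Jun (-0.12) changed sign. Of 43 named genes called, 34 were then still 2-fold apart in the same direction, and under each of the other alternatives 39 or more were, with no change of sign. With 1 cell left out, 28 of the 43 were called each time and 15 lost the call at least once; over all alternatives 27 lost it at least once. With at least 4500 records with a read (8 against 4 cells) the epithelial median was 0.67 and the parietal median 0.34, against -0.35. The visceral median was -1.50 there, against -0.63, and 1 of 4 genes was called lower. Named calls that came under 2-fold included Ctnna1 (0.83), Pcna (0.88), Rfc2 (0.65) and B2m (0.997) there, and B2m (0.93) thinned to equal reads and Jun (0.89) without the 3 cells nearest the threshold. On the difference of mean log2(CPM + 1), the visceral median was -1.72, with 2 of 4 genes called lower. The hypoblast median was -0.90 there, with 1 of 10 genes called higher and 3 lower. On that scale 10 epithelial genes were called higher and 2 lower. With edgeR's TMM factors the epithelial median was 0.08 and that of all genes -0.02. No paired analysis was possible because the cells carry no replicate numbers shared between groups and no test was run. A read was worth up to 10.5 CPM (in C46), so differences at low levels were not detectable at this depth.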

Other observations

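Cdh1 was also read among the 15 single cells with fewer than 4000 records with a read, which entered no comparison. Of these, 4 were at 50 CPM or more and 10 had no Cdh1 read. The highest was C45 at 2493 CPM, with 2002 records with a read, followed by C47 at 1132 CPM, with 2777 records. Both lay above every gene-rich cell.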
